A study of Mus musculus with 10 samples.

Results

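The 10 genes described here are those whose signal was at least 2 times lower in mouse marrow progenitors transformed by NUP98-NSD1 or by HoxA9 with Meis1 than in progenitors transformed by MLL-ENL or by HoxA9 alone. They were chosen from the array signals themselves. The lowest signal over the MLL-ENL array and the 3 HoxA9 arrays had to be at least 2 times the highest signal over the 3 NUP98-NSD1 and 3 HoxA9+Meis1 arrays, and at least 1000. Where several probe sets of a gene met this, the one with the highest mean would have stood for it. Of 18193 genes with a probe set of 1 gene symbol, 10 were taken (0.0550%) and 1 further gene that met both thresholds was left out. The same thresholds turned round, with the NUP98-NSD1 and HoxA9+Meis1 arrays higher, were met by 36 genes.

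RNA was measured on Affymetrix Mouse Genome 430 2.0 arrays, 1 culture per array, in 10 cultures of primary mouse bone marrow progenitors that an oncogene had immortalized. The groups were NUP98-NSD1 (3 clones), HoxA9+Meis1, in which both genes were expressed together (3 clones), MLL-ENL (1 array, with no clone number) and HoxA9 (3 clones). All were derived in medium with stem cell factor and without GM-CSF, and the titles call all of them myeloid. Neither the age and strain of the mice nor the vectors and their promoters are given in the sources used here, and whether clones came from separate animals is not stated, so p-values measure the spread between these cultures only. No untransformed progenitors are among the samples, so every level below is relative to other transformed cells.

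HoxA9 is a homeobox transcription factor of early blood progenitors, and Meis1 is a homeobox cofactor that binds DNA beside it and beside Pbx proteins. In NUP98-NSD1 a nuclear pore protein is fused with a methyltransferase for histones, and in MLL-ENL a part of the protein MLL is fused with a protein of transcription elongation. Both fusions occur in acute leukaemia. The genes described fall into a few roles. Gatm and Gamt are the enzymes of the synthesis of creatine, which cells use as a phosphate store. Rhoj is a small GTPase and Mcf2l an exchange factor that loads such GTPases with GTP. Slc36a4 is an amino acid carrier and Cracr2b belongs to the regulators of calcium release-activated channels. Clec7a is dectin-1, the beta-glucan receptor of myeloid cells, and B3gnt8 is a glycosyltransferase that extends sugar chains. Mapk7 is the kinase ERK5, and Fam110c belongs to a small family of proteins found at centrosomes in human cells.

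Of the markers of early myeloid cells, Mpo and Kit were bright in all groups, while Elane and Cd34 differed between them. Mpo, the peroxidase of primary granules, read 196759 to 237929 in NUP98-NSD1 cells, 145387 to 151814 in HoxA9+Meis1 cells, 221677 in MLL-ENL cells and 126200 to 142660 in HoxA9 cells. Kit, the stem cell factor receptor, read 17046 to 29049 in NUP98-NSD1 cells, 16810 to 18561 in HoxA9+Meis1 cells, 14242 in MLL-ENL cells and 14446 to 18944 in HoxA9 cells on 1 of its probe sets. Elane, a protease of primary granules, read 147012 to 199729 in NUP98-NSD1 cells, 13902 to 25137 in HoxA9+Meis1 cells, 198245 in MLL-ENL cells and 106958 to 116367 in HoxA9 cells. Cd34, a surface marker of progenitors, read 12432 to 32330 in NUP98-NSD1 cells, 48216 to 50766 in HoxA9+Meis1 cells, 2723 in MLL-ENL cells and 93.9 to 1845 in HoxA9 cells, so it separated the same 6 and 4 arrays in the opposite direction to the 10 genes. The probe sets of Hoxa9 went against each other. One read 6783 to 8481 in NUP98-NSD1 cells, 89613 to 103499 in HoxA9+Meis1 cells, 6478 in MLL-ENL cells and 27259 to 59375 in HoxA9 cells. The other read 31804 to 36931 in NUP98-NSD1 cells, 25.7 to 29.3 in HoxA9+Meis1 cells, 35209 in MLL-ENL cells and 25.9 to 50.8 in HoxA9 cells. The brightest Meis1 probe set read 4214 to 6267 in NUP98-NSD1 cells, 558 to 687 in HoxA9+Meis1 cells, 10160 in MLL-ENL cells and 16.7 to 27.9 in HoxA9 cells. On the other 2 all values lay between 363 and 1009. Whether these Hoxa9 and Meis1 probe sets read the introduced genes was not tested, so they do not give the full Meis1 level of HoxA9+Meis1 cells. The summed signal of 17 measured secondary granule and neutrophil markers was 590217 to 1308200 in NUP98-NSD1 cells, 35214 to 125846 in HoxA9+Meis1 cells, 84342 in MLL-ENL cells and 36371 to 148562 in HoxA9 cells. Summed monocyte and macrophage markers (20 measured) were 393122 to 610251 in NUP98-NSD1 cells, 215562 to 305108 in HoxA9+Meis1 cells, 632809 in MLL-ENL cells and 227934 to 279551 in HoxA9 cells. The NUP98-NSD1 and HoxA9+Meis1 arrays did not stand apart from the other 4 in these, but in 3 of 12 cell type lists they did, with the higher sums. Of the gene lists of other kinds, 3 also set these 6 arrays apart with the higher sums, and 21 did not set them apart. Stem and progenitor genes (24 measured) summed to 365087 to 388909 in NUP98-NSD1 cells, 511186 to 523101 in HoxA9+Meis1 cells, 207962 in MLL-ENL cells and 295129 to 331799 in HoxA9 cells. Mast cell, basophil and eosinophil markers (13 measured) summed to 65368 to 312692 in NUP98-NSD1 cells, 19417 to 28498 in HoxA9+Meis1 cells, 6196 in MLL-ENL cells and 9501 to 14742 in HoxA9 cells. Endothelial markers (14 measured) summed to 16616 to 22999 in NUP98-NSD1 cells, 17965 to 19099 in HoxA9+Meis1 cells, 8924 in MLL-ENL cells and 10171 to 13392 in HoxA9 cells. The sums of these 3 cell type lists thus separated the same arrays as the 10 genes did. The stem and progenitor list holds Hoxa9 and Meis1, which were introduced into some of these cells, and Cd34. Whether the makeup of the cultures differed, and its part in the results, was not tested. In such bulk samples fewer cells of a type and less RNA per cell cannot be told apart. Hybridization controls, which read spiked-in RNA (18 probe sets), had a mean log2 signal of 14.01 to 14.13 for NUP98-NSD1 and MLL-ENL samples. The mean was 13.18 to 13.42 for HoxA9+Meis1 and HoxA9 samples. NUP98-NSD1 against MLL-ENL and HoxA9+Meis1 against HoxA9 therefore each stay within 1 of these sets of arrays, while NUP98-NSD1 against HoxA9+Meis1 and MLL-ENL against HoxA9 cross them, and there set and group cannot be told apart.

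Most values of the 10 genes in NUP98-NSD1 and HoxA9+Meis1 cells lay above a level used here to mark dim signal. A level of 369, above which a probe set had to lie on at least 3 of the 10 arrays to be tested, served as a mark of dim signal; all 10 probe sets passed it, and could pass it through the MLL-ENL and HoxA9 arrays alone. Of the 60 values of these genes on NUP98-NSD1 and HoxA9+Meis1 arrays, 15 lay at or below it, against 0 of 40 on MLL-ENL and HoxA9 arrays. For 0 of the 10 genes did all 6 NUP98-NSD1 and HoxA9+Meis1 arrays lie at or below it, and for 5 genes none did. That level is a percentile of all values and does not show whether a transcript is present. The genes are therefore called lower, and whether any was shut off was not tested. Where a group holds values at or below 369, those values were set at that level for its fold, an alternative chosen after the data were seen, and the fold is written as at least that size. Because the signals chose the genes, their differences between the 6 and the 4 arrays are given without a test.

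**Figure D1:**
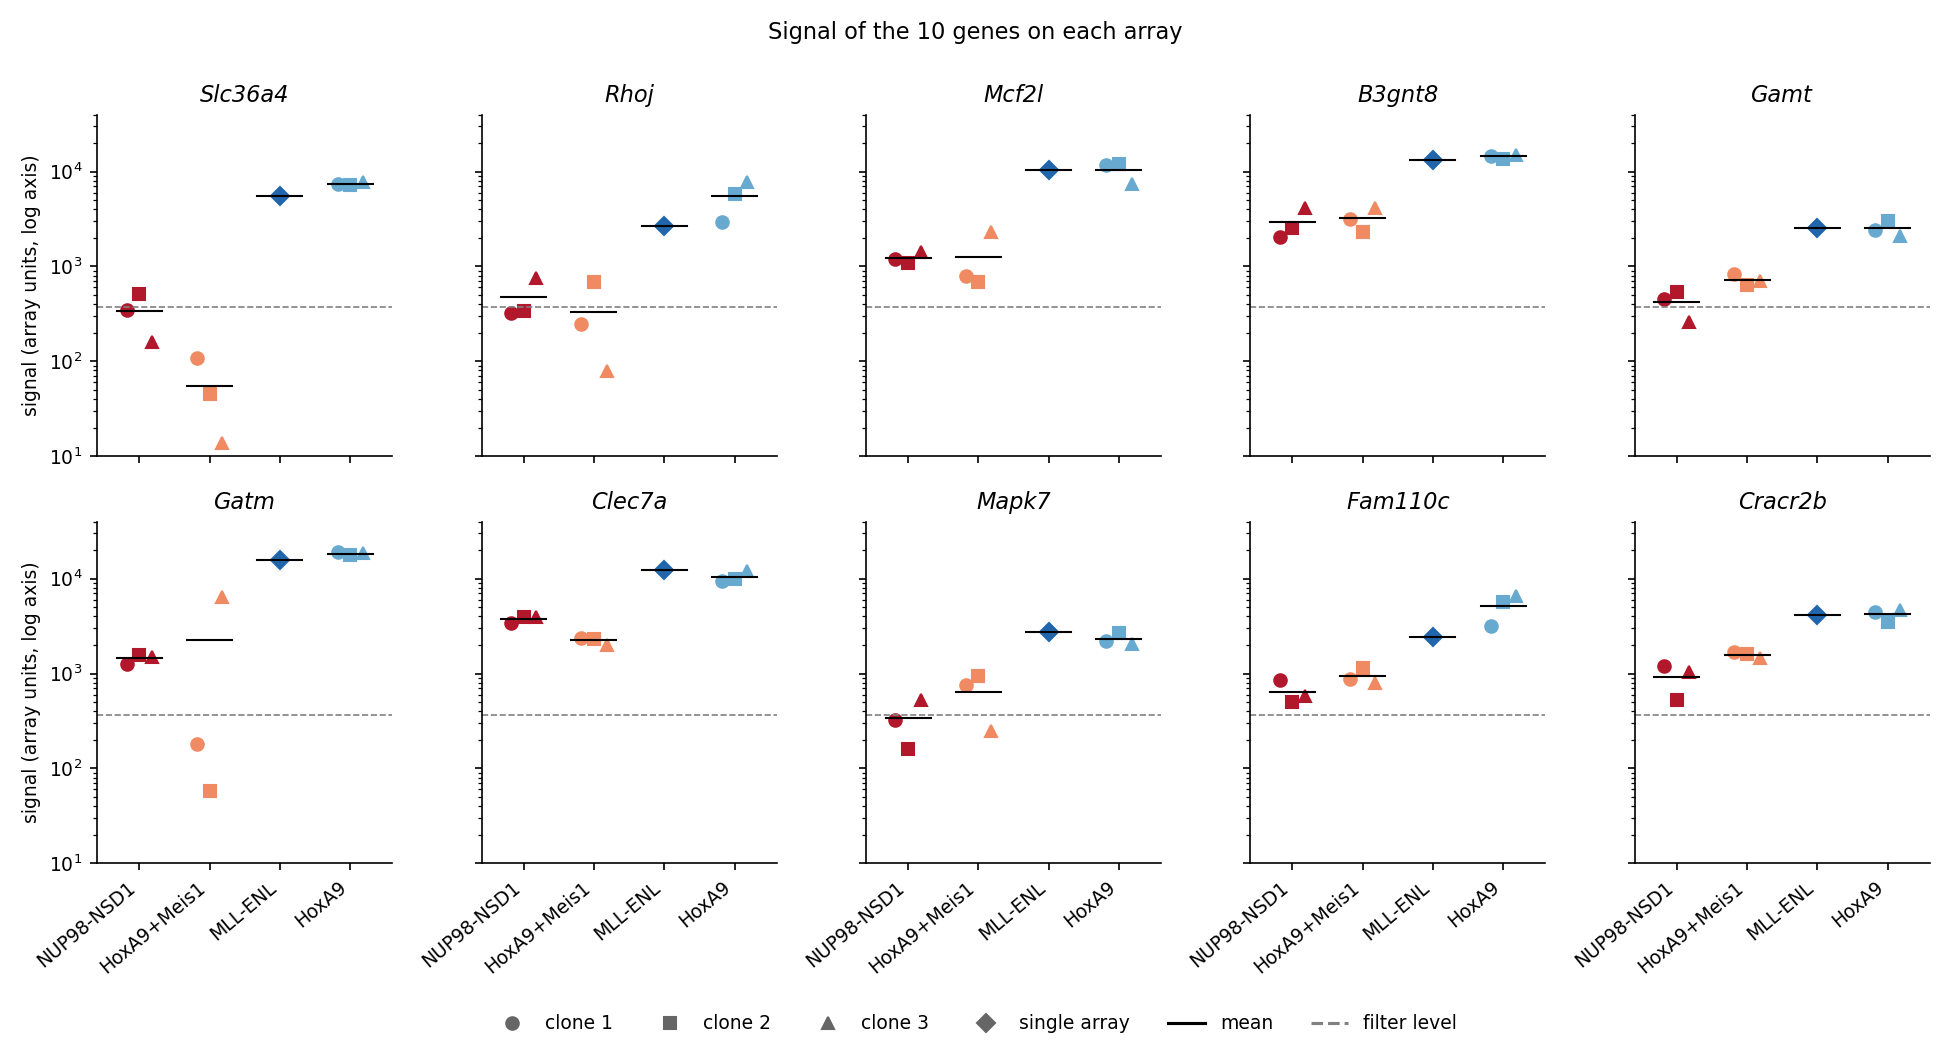
Signal of each of the 10 genes on each array, on a log axis in array units, for NUP98-NSD1, HoxA9+Meis1, MLL-ENL and HoxA9. Symbols are clones, black lines are group means and the dashed line is the level of 369; Slc36a4 has 5 of its 6 low values at or below that line, while all values of Mcf2l, B3gnt8, Clec7a, Fam110c and Cracr2b lie above it.

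Promoter sequences are shown because the genes were chosen for moving together across cells that differ in HoxA9 and Meis1, which bind DNA. RefSeq windows (build GRCm38.p6) of 250 bases before to 50 bases after a start were at hand for 9 of the 10 genes, 16 windows in all; Cracr2b was not matched. Both strands were searched for TGACAG (Meis), TGATTNA (Pbx with Hox) and TTTATNG (Hox). TGACAG was found in Fam110c, Mcf2l, Rhoj and Slc36a4, in 25.0% of the windows against 19.18% of 32851 windows of all genes. TGATTNA was found in Fam110c, Mapk7 and Mcf2l, in 25.0% against 10.3%, and TTTATNG in Clec7a alone, in 6.2% against 10.91%. Windows of a gene can overlap, so shares of windows count some sequence more than once. Those of Mapk7 nearly coincide and hold the same TGATTNA match. Counted by gene, the 3 motifs were in 4, 3 and 1 of the 9 genes, against 21.57%, 11.8% and 12.53% of all genes. The 9 genes have 16 windows, while all 27025 genes have 32851. A count by gene therefore gives the 9 more windows per gene in which to match. The windows shown are those of the first 4 genes with most kinds of these motifs, which stand in capitals, written 5′ to 3′ on the gene's strand.
Fam110c, chr12:31073718-31074017, plus strand: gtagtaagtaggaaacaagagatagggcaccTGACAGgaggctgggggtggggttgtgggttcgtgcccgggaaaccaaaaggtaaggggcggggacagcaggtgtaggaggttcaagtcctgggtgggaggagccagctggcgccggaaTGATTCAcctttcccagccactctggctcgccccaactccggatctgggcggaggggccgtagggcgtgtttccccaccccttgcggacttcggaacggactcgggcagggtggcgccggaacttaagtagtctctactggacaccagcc
Slc36a4, chr9:15709488-15709787, plus strand: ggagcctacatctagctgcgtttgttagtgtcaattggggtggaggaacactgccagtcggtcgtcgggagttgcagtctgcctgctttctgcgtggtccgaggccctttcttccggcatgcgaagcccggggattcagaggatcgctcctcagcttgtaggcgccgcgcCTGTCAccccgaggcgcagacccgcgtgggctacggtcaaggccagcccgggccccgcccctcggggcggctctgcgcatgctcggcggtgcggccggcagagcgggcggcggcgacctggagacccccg
Rhoj, chr12:75308063-75308362, plus strand: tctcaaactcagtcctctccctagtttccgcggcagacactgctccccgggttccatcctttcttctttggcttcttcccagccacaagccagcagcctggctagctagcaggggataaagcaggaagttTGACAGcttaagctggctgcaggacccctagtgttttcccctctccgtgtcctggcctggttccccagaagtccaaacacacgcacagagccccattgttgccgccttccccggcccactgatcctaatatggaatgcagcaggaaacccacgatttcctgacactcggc
Mcf2l, chr8:12916200-12916499, plus strand: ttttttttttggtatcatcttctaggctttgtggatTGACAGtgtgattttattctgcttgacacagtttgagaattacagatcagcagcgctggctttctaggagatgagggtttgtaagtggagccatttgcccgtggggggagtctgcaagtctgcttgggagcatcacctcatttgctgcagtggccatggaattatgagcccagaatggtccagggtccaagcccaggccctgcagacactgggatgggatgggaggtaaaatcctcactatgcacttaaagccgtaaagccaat

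Fam110c was the only 1 of the 9 genes with a Meis and a Pbx-Hox match in the same window, at positions -219 to -214 and -100 to -94 from the start; its Pbx-Hox match is also a match of TGANTCA, the AP-1 motif. In Slc36a4 the capitals are the Meis motif read from the opposite strand, at positions -80 to -75. In Rhoj it lies at -120 to -115 and in the Mcf2l window at -214 to -209. Mcf2l has 6 windows, and its Pbx-Hox matches lie in another of them. Of the other motifs searched, GGGCGG (Sp and Klf) was in 6 of the 9 genes, against 38.2% of all genes. It was in 56.2% of the windows, against 35.66% of all windows. The Runx motif ACCACA was found in 6.2% of the windows against 16.76% of all windows. The shares for the AP-1 motif were 6.2% and 7.81%. The Ets motif CCGGAAG was found in 12.5% against 8.86%. The C/EBP motif TTGCAA was found in 0 of the 16 windows, against 6.23% of all windows. The Gata motif AGATAA was likewise found in 0 windows, against 11.18% of all windows. The same held for the E-box motif, spelled CACGTG, which 7.15% of all windows hold. The windows held a median of 13 CG pairs and 61.5% G and C, against 7 and 52.7% over all windows. Such matches describe letters in these windows and show no binding.

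Gatm is the enzyme of the first step of creatine synthesis. It read 1274, 1559 and 1508 in NUP98-NSD1 clones 1 to 3, 181, 58.3 and 6473 in HoxA9+Meis1 clones 1 to 3, 15924 in MLL-ENL cells, and 18896, 17578 and 18593 in HoxA9 clones 1 to 3. The NUP98-NSD1 clones lay close together, while HoxA9+Meis1 clone 3 stood 111 times above clone 2 and above all NUP98-NSD1 clones. NUP98-NSD1 cells were 10.8-fold below MLL-ENL cells and HoxA9+Meis1 cells at least 18.1-fold below HoxA9 cells, both as folds of signal + 32 from group means on the log2 scale. HoxA9+Meis1 clone 3 sets the second of these: without it the fold was at least 45.8, while the lowest HoxA9 clone was 2.72 times clone 3 itself. Between NUP98-NSD1 and HoxA9+Meis1 cells the log2 difference was 1.56 (SE 1.17, limma adjusted p = 0.335), with a 95% interval of -1.02 to 4.14. Without HoxA9+Meis1 clone 3 it was called (adjusted p = 0.00015), with NUP98-NSD1 cells at least 3.67-fold above clones 1 and 2, which were both dim, so clone 3 decides whether Gatm is called.

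Gamt is the enzyme of the step that follows. It read 456, 539.7 and 259.5 in NUP98-NSD1 clones, 823, 643 and 711 in HoxA9+Meis1 clones, 2552 in MLL-ENL cells, and 2449, 3043 and 2079 in HoxA9 clones. All NUP98-NSD1 clones lay below all HoxA9+Meis1 clones, and MLL-ENL lay inside the range of the HoxA9 clones. The mean was at least 5.36-fold lower in NUP98-NSD1 than in MLL-ENL cells and 3.35-fold lower in HoxA9+Meis1 than in HoxA9 cells. The difference between NUP98-NSD1 and HoxA9+Meis1 cells, -0.80 on the log2 scale (SE 0.28), did not pass the test over all probe sets (limma adjusted p = 0.0529), and passed it without NUP98-NSD1 clone 2 (-0.999, adjusted p = 0.0319).

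Other creatine genes, picked after the values were seen and given as values only, did not separate the 6 arrays from the 4. Few probe sets did: 1.98% of all tested had the 4 arrays higher and 2.08% had them lower. Slc6a8, the creatine carrier of the cell membrane, read 751 to 1577 in NUP98-NSD1 cells, 1011 to 1287 in HoxA9+Meis1 cells, 1642 in MLL-ENL cells and 1495 to 2367 in HoxA9 cells. Its lowest value in MLL-ENL and HoxA9 cells was 0.948 times the highest value in the other cells, so the ranges overlapped slightly. Ckb, a cytosolic creatine kinase, ran the other way on average, with means of 1424 in NUP98-NSD1 and 1485 in HoxA9+Meis1 cells against 901 in MLL-ENL and 987 in HoxA9 cells, and overlapping ranges. Ckm, the muscle creatine kinase, read 585 to 704 in NUP98-NSD1 cells, 1163 to 1368 in HoxA9+Meis1 cells, 879.8 in MLL-ENL cells and 1213 to 1422 in HoxA9 cells.

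**Figure D2:**
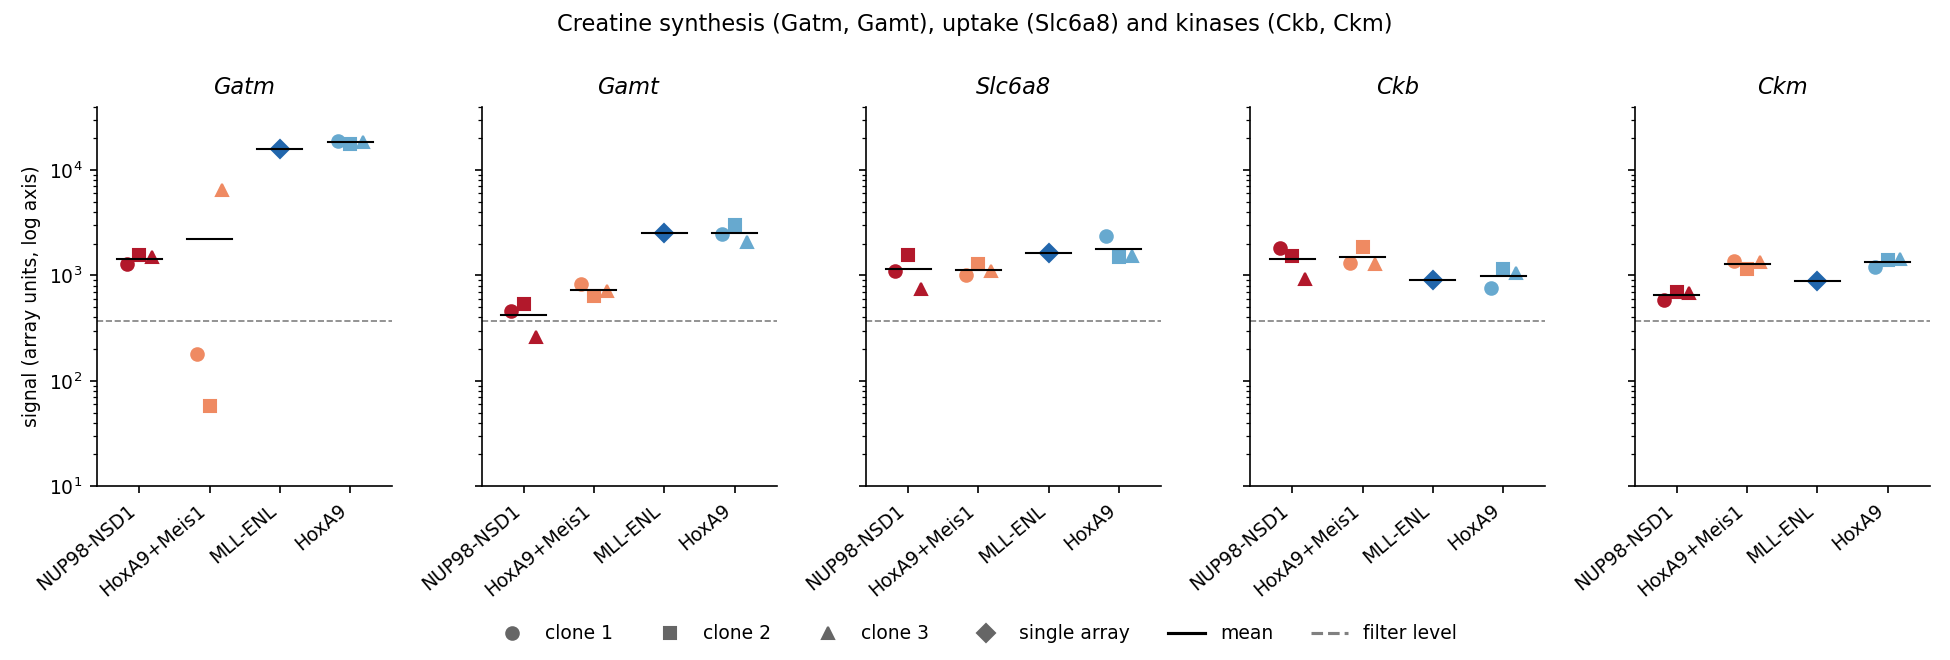
Signal on each array of the creatine synthesis genes Gatm and Gamt and of Slc6a8, Ckb and Ckm, on a log axis in array units. Symbols are clones, black lines group means and the dashed line the level of 369; only Gatm and Gamt show no overlap between the NUP98-NSD1 and HoxA9+Meis1 arrays and the MLL-ENL and HoxA9 arrays, which is how they were chosen.

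Rhoj, a small GTPase close to Cdc42 that is best known from endothelial cells, read 327, 337 and 750.4 in NUP98-NSD1 clones, 247, 678 and 79.9 in HoxA9+Meis1 clones, 2649 in MLL-ENL cells, and 2912, 5818 and 7842 in HoxA9 clones. NUP98-NSD1 clones 1 and 2 and HoxA9+Meis1 clones 1 and 3 were dim, and the ranges of these groups overlapped. The HoxA9 clones spread 2.69-fold, the widest spread of HoxA9 clones among the 10 genes, and MLL-ENL lay below all of them. The mean was at least 5.35-fold lower in NUP98-NSD1 than in MLL-ENL cells and at least 10.6-fold lower in HoxA9+Meis1 than in HoxA9 cells.

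Mcf2l, the exchange factor, stayed above the dim level on every array. It read 1198, 1090 and 1415 in NUP98-NSD1 clones, 801, 686 and 2291 in HoxA9+Meis1 clones, 10472 in MLL-ENL cells, and 11732, 11994 and 7401 in HoxA9 clones. HoxA9+Meis1 clone 3 was again the highest of its group, and MLL-ENL lay inside the HoxA9 range. The mean was 8.34-fold lower in NUP98-NSD1 than in MLL-ENL cells and 9.11-fold lower in HoxA9+Meis1 than in HoxA9 cells.

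Relatives of Rhoj, again picked after their values were seen, each had a pattern of their own. Cdc42 itself averaged 51533 in NUP98-NSD1 cells, 47200 in HoxA9+Meis1 cells, 53472 in MLL-ENL cells and 45529 in HoxA9 cells. Rhoq read 2043 to 2811 in NUP98-NSD1 cells, 6469 to 8916 in HoxA9+Meis1 cells, 6891 in MLL-ENL cells and 2319 to 4643 in HoxA9 cells. Rhou read 3873 to 7775 in NUP98-NSD1 cells, 307 to 684 in HoxA9+Meis1 cells, 2311 in MLL-ENL cells and 1044 to 1910 in HoxA9 cells. Rhoq was thus high in HoxA9+Meis1 and MLL-ENL cells, and Rhou low in HoxA9+Meis1 cells.

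Slc36a4, a carrier of amino acids such as proline and tryptophan, had the widest gap of the 10 genes. It read 346, 511 and 161 in NUP98-NSD1 clones, 108, 45.1 and 13.6 in HoxA9+Meis1 clones, 5557 in MLL-ENL cells, and 7462, 7162 and 7790 in HoxA9 clones. Only NUP98-NSD1 clone 2 was above the dim level among the 6 arrays, and the lowest value of the other 4 arrays was 10.9 times that clone's. NUP98-NSD1 cells were at least 12.6-fold below MLL-ENL cells, and HoxA9+Meis1 cells at least 18.7-fold below HoxA9 cells. The fit called NUP98-NSD1 above HoxA9+Meis1 cells (limma adjusted p = 0.00607), but 5 of the 6 values were dim, and with these at 369 the log2 difference was 0.15. No size is therefore given for it, and the call was lost when the compared groups were fitted alone (adjusted p = 0.0751).

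The relatives of Slc36a4 had no such gap, and of all tested probe sets only 1.98% had the 4 arrays above the 6. Slc36a1, a lysosomal proton-coupled carrier, read 4564 to 5414 in NUP98-NSD1 cells, 2647 to 4430 in HoxA9+Meis1 cells, 5336 in MLL-ENL cells and 4371 to 5206 in HoxA9 cells. Slc36a2 read 273.5 to 497.5 in NUP98-NSD1 cells, 439 to 808 in HoxA9+Meis1 cells, 780.4 in MLL-ENL cells and 788 to 1625 in HoxA9 cells. The 4 arrays fell just short of separation there, with their lowest value at 0.965 times the highest of the other 6.

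Cracr2b lay nearest to the threshold, with a ratio of 2.10 between the lowest of the 4 arrays and the highest of the 6. It read 1203, 530.1 and 1026 in NUP98-NSD1 clones, 1671, 1602 and 1473 in HoxA9+Meis1 clones, 4141 in MLL-ENL cells, and 4445, 3502 and 4698 in HoxA9 clones. The HoxA9+Meis1 clones were within 1.14-fold of each other, and all lay above all NUP98-NSD1 clones. The mean was 4.62-fold lower in NUP98-NSD1 than in MLL-ENL cells and 2.61-fold lower in HoxA9+Meis1 than in HoxA9 cells. NUP98-NSD1 cells were below HoxA9+Meis1 cells by a log2 difference of -0.84 (SE 0.27, limma adjusted p = 0.0361). That call was lost in 7 of 15 alternatives, among them leaving out NUP98-NSD1 clone 2 (-0.50, adjusted p = 0.0719) or any HoxA9+Meis1 clone (adjusted p = 0.0973, 0.0892 and 0.0631 for clones 1, 2 and 3).

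Cracr2b is a relative of Cracr2a, which in human cells binds the calcium channel Orai1 and its sensor Stim1. Stim1 read 3941 to 4824 in NUP98-NSD1 cells, 1304 to 1629 in HoxA9+Meis1 cells, 2869 in MLL-ENL cells and 1787 to 2325 in HoxA9 cells. Orai1 read 10643 to 14144 in NUP98-NSD1 cells, 17051 to 17616 in HoxA9+Meis1 cells, 16749 in MLL-ENL cells and 18371 to 21587 in HoxA9 cells. Orai1 was thus lowest in NUP98-NSD1 cells, and the MLL-ENL value lay below the HoxA9+Meis1 clones.

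Clec7a varied least within the NUP98-NSD1 group. It read 3375, 3922 and 3954 in NUP98-NSD1 clones, 2397, 2339 and 2001 in HoxA9+Meis1 clones, 12418 in MLL-ENL cells, and 9514, 9902 and 12003 in HoxA9 clones. Every value was well above the dim level, and no 2 of the groups overlapped. The mean was 3.30-fold lower in NUP98-NSD1 than in MLL-ENL cells and 4.60-fold lower in HoxA9+Meis1 than in HoxA9 cells. NUP98-NSD1 cells were 1.66-fold above HoxA9+Meis1 cells (log2 0.73, SE 0.13, limma adjusted p = 0.00242), with all 3 clones above all 3. This call held in all 15 alternatives, with adjusted p between 0.0019 and 0.0105.

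Dectin-1 signals through the kinase Syk and the proteins Bcl10 and Malt1. Syk read 10852 to 12627 in NUP98-NSD1 cells, 7264 to 8025 in HoxA9+Meis1 cells, 10831 in MLL-ENL cells and 6155 to 7112 in HoxA9 cells. Bcl10 lay between 8570 and 10274 on all 10 arrays. Malt1 averaged 2051 in NUP98-NSD1 cells, 3124 in HoxA9+Meis1 cells, 2342 in MLL-ENL cells and 1918 in HoxA9 cells. None of these separated the 6 arrays from the 4, while 1.98% of all tested probe sets did with the 4 higher.

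B3gnt8 extends poly-N-acetyllactosamine chains on branched N-glycans. It read 2062, 2567 and 4164 in NUP98-NSD1 clones, 3134, 2315 and 4171 in HoxA9+Meis1 clones, 13115 in MLL-ENL cells, and 14533, 13745 and 15109 in HoxA9 clones. The NUP98-NSD1 and HoxA9+Meis1 ranges nearly coincided, and the HoxA9 clones lay within 1.10-fold of each other. The mean was 4.63-fold lower in NUP98-NSD1 than in MLL-ENL cells and 4.60-fold lower in HoxA9+Meis1 than in HoxA9 cells. B3gnt2 is another enzyme of the same chains. Its 4 MLL-ENL and HoxA9 arrays all lay above the other 6, by 1.10-fold. It was the only 1 of 28 relatives measured with this, against 1.98% of all tested probe sets. B3gnt2 read 16001 to 22005 in NUP98-NSD1 cells, 16817 to 19015 in HoxA9+Meis1 cells, 28240 in MLL-ENL cells and 24109 to 25312 in HoxA9 cells. B3gnt5, which starts lacto-series glycolipids, read 2040 to 2629 in NUP98-NSD1 cells, 3475 to 7598 in HoxA9+Meis1 cells, 1877 in MLL-ENL cells and 2153 to 4340 in HoxA9 cells.

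Mapk7, whose product ERK5 acts below the kinase Map2k5 and phosphorylates Mef2 factors, read 321, 161 and 532 in NUP98-NSD1 clones, 754, 933 and 247 in HoxA9+Meis1 clones, 2745 in MLL-ENL cells, and 2186, 2678 and 2040 in HoxA9 clones. HoxA9+Meis1 clone 3 was the lowest of its group, unlike for Gatm and Mcf2l. MLL-ENL lay just above the HoxA9 clones. The mean was at least 6.18-fold lower in NUP98-NSD1 than in MLL-ENL cells and at least 3.45-fold lower in HoxA9+Meis1 than in HoxA9 cells. NUP98-NSD1 against HoxA9+Meis1 gave -0.82 (SE 0.49, limma adjusted p = 0.226), and -1.37 without HoxA9+Meis1 clone 3 (adjusted p = 0.0364).

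Of 6 other genes of the ERK5 pathway, 0 had all MLL-ENL and HoxA9 arrays above the other 6. Only 1.98% of all tested probe sets had this, so nothing is read from that count. Map3k3, a kinase that acts above Map2k5, came nearest, with 4053 to 4898 in NUP98-NSD1 cells, 3111 to 3627 in HoxA9+Meis1 cells, 6423 in MLL-ENL cells and 4159 to 5303 in HoxA9 cells. Its means ran in the direction of Mapk7 within each set of arrays, but the ranges of NUP98-NSD1 and HoxA9 cells overlapped. Map3k2, the other kinase of that step, read 1551 to 2422 in NUP98-NSD1 cells, 1132 to 1488 in HoxA9+Meis1 cells, 2192 in MLL-ENL cells and 1527 to 2250 in HoxA9 cells. Mef2a read 5545 to 6099 in NUP98-NSD1 cells, 6108 to 6820 in HoxA9+Meis1 cells, 7476 in MLL-ENL cells and 4488 to 5893 in HoxA9 cells. Neither separated the 6 arrays from the 4. Map2k5 read 5035 to 5307 in NUP98-NSD1 cells, 7657 to 8397 in HoxA9+Meis1 cells, 5413 in MLL-ENL cells and 6102 to 7351 in HoxA9 cells. Mef2c read 10498 to 10619 in NUP98-NSD1 cells, 21466 to 26564 in HoxA9+Meis1 cells, 18591 in MLL-ENL cells and 10346 to 11635 in HoxA9 cells. Mef2d read 4519 to 6425 in NUP98-NSD1 cells, 12091 to 14746 in HoxA9+Meis1 cells, 6805 in MLL-ENL cells and 4435 to 5562 in HoxA9 cells. Map2k5, Mef2c and Mef2d had their highest means in HoxA9+Meis1 cells, where Mapk7 was low.

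Fam110c read 849.6, 505 and 575 in NUP98-NSD1 clones, 871, 1147 and 801 in HoxA9+Meis1 clones, 2411 in MLL-ENL cells, and 3206, 5626 and 6582 in HoxA9 clones. NUP98-NSD1 clone 1 lay among the HoxA9+Meis1 clones, and MLL-ENL lay below all HoxA9 clones. The mean was 3.70-fold lower in NUP98-NSD1 than in MLL-ENL cells and 5.15-fold lower in HoxA9+Meis1 than in HoxA9 cells. Fam110c is the only 1 of the 10 genes with another probe set of 1 symbol. That probe set read 598, 245.9 and 36.4 in NUP98-NSD1 clones, 344, 229 and 101 in HoxA9+Meis1 clones, 686 in MLL-ENL cells, and 1503, 2249.9 and 3236 in HoxA9 clones. On this probe set too all 4 MLL-ENL and HoxA9 arrays lay above the other 6, but its lowest value among the 4 arrays was only 1.15 times the highest among the 6. The other 9 genes rest on 1 probe set each.

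Within each set of arrays the 10 genes differed widely in size. With dim values at 369, NUP98-NSD1 minus MLL-ENL ran from -3.65 (Slc36a4) to -1.72 (Clec7a) on the log2 scale, with a median of -2.42, against a median of 0.07 over all 30945 probe sets tested. HoxA9+Meis1 minus HoxA9 ran from -4.22 (Slc36a4) to -1.39 (Cracr2b), with a median of -2.28, against -0.02 over all probe sets. In those comparisons limma called 3.98% and 6.89% of all probe sets. The values of the 10 genes follow from how they were chosen, so nothing is read from them.

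The thresholds did not set the groups on the same side against each other, so these were compared by the fit. The choice still bounded every value that enters, from above in NUP98-NSD1 and HoxA9+Meis1 cells and from below in MLL-ENL and HoxA9 cells, and the p-values do not allow for that. Between NUP98-NSD1 and HoxA9+Meis1 cells 3 of the 10 genes were called at a limma adjusted p under 0.05: Slc36a4 and Clec7a higher and Cracr2b lower in NUP98-NSD1. Of all probe sets tested, 30.9% were called in this comparison (13.8% higher and 17.2% lower), so the share among the 10 is near the background. The call of Slc36a4 rests on mostly dim values, as given above, while all values of Clec7a and Cracr2b lay above 369. The remaining 7 genes had log2 differences from -0.82 to 1.56, and among them Rhoj, Gamt, Gatm and Mapk7 hold dim values. Of the 7 intervals only that of B3gnt8, from -0.71 to 0.41, stayed within 1 log2 unit of 0. Those of Rhoj (-0.62 to 2.10), Mcf2l (-0.67 to 1.01), Gamt (-1.42 to -0.18), Gatm, Mapk7 (-1.90 to 0.26) and Fam110c (-1.19 to 0.11) leave room for larger differences.

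Between MLL-ENL and HoxA9 cells 0 of the 10 genes were called by limma, against 14.5% of all probe sets (5.01% higher and 9.46% lower). At an unadjusted p under 0.05 there was 1, Fam110c, with a log2 difference of -1.02 (SE 0.41, adjusted p = 0.127), which was called without HoxA9 clone 1 (-1.32, adjusted p = 0.0465). The estimates of Mcf2l (0.05), Gamt (0.03) and Cracr2b (-0.01) lay near 0 and changed sign with another scaling or a clone left out, with intervals of -1.14 to 1.24, -0.85 to 0.91 and -0.85 to 0.82. With 1 MLL-ENL array, whose variance is borrowed from the replicated groups, these intervals do not show that the groups were alike. Both comparisons cross the sets of arrays formed by the hybridization controls, and over all probe sets their medians were -0.13 (NUP98-NSD1 minus HoxA9+Meis1) and -0.20 (MLL-ENL minus HoxA9).

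**Figure D3:**
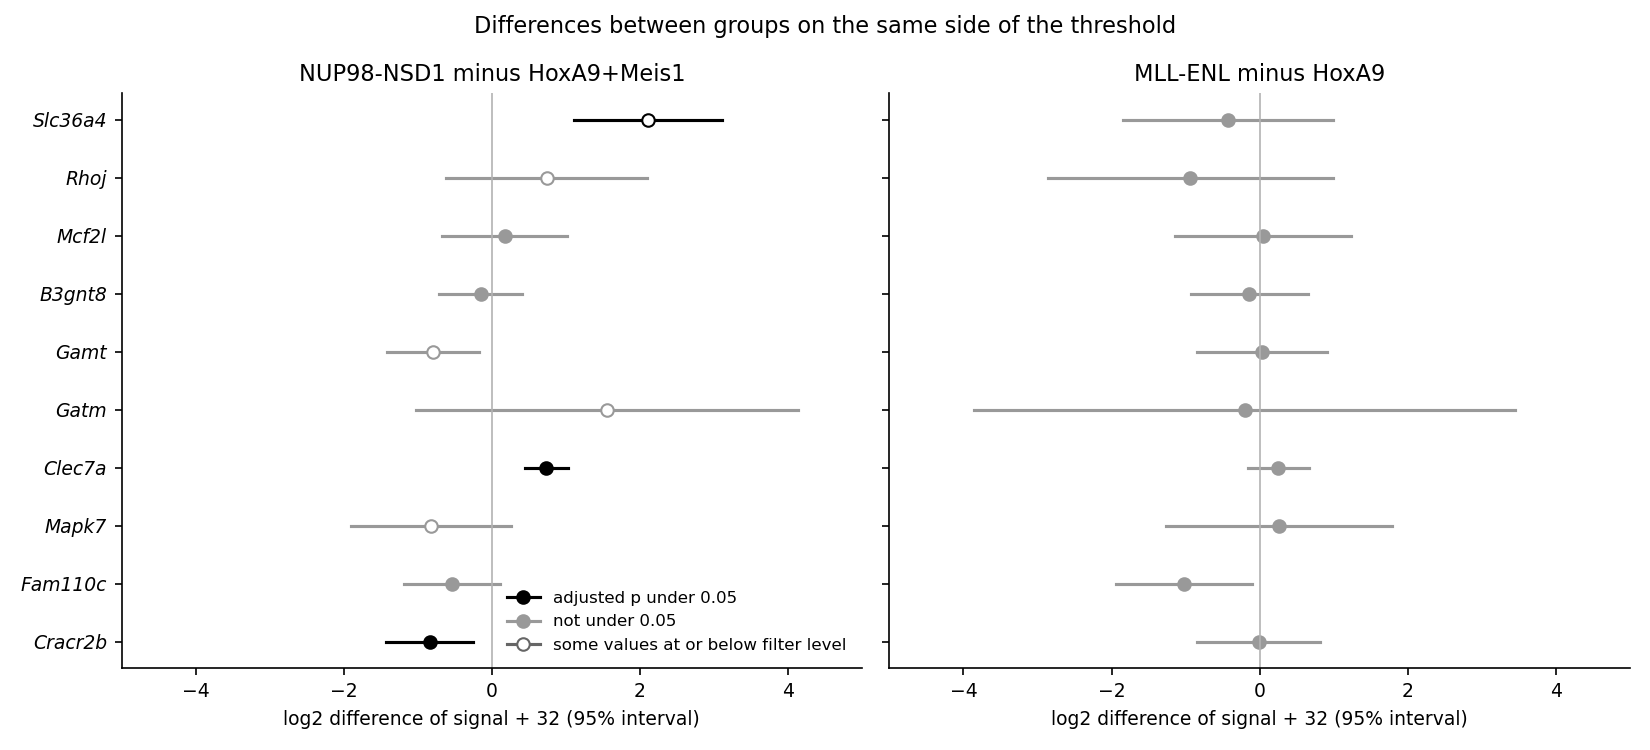
Log2 difference of signal + 32 for each of the 10 genes, with its 95% interval from the fit over all 10 arrays, for NUP98-NSD1 minus HoxA9+Meis1 (left) and MLL-ENL minus HoxA9 (right). Black marks an adjusted p under 0.05, which only Slc36a4, Clec7a and Cracr2b reach, on the left; open circles mark the 5 genes with values at or below 369 in the groups compared, Slc36a4 among them, and the interval of Gatm is the widest in both panels.

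The thresholds cut through a continuous range. Just inside by ratio were Cracr2b (2.10), Fam110c (2.10) and Mapk7 (2.19). Just outside were Bscl2, the lipid droplet protein seipin, at 1.93, Slfn4, a schlafen protein of myeloid cells, at 1.91, and the growth factor gene Nrg2 at 1.85. Bscl2 read 150.1, 974 and 1282 in NUP98-NSD1 clones, 123, 98.3 and 142 in HoxA9+Meis1 clones, 2538 in MLL-ENL cells and 3858, 2479 and 2739 in HoxA9 clones. Nrg2 read 216, 771 and 1222 in NUP98-NSD1 clones, 2132, 1483 and 1840.4 in HoxA9+Meis1 clones, 3939.9 in MLL-ENL cells and 4453, 4548 and 4257 in HoxA9 clones. Slfn4 read 856, 1435 and 5854 in NUP98-NSD1 clones, 979, 769 and 1353 in HoxA9+Meis1 clones, 11177 in MLL-ENL cells and 27647, 27408 and 29383 in HoxA9 clones, so NUP98-NSD1 clone 3 kept it out. Just outside by level was Sdc2, the proteoglycan syndecan-2, whose MLL-ENL signal on 1 probe set was 937. Its NUP98-NSD1 and HoxA9+Meis1 values there were far below 369, so that its ratio was at least 2.54 with them at that level. On this probe set Sdc2 read 58.0, 42.6 and 33.6 in NUP98-NSD1 clones, 32.9, 42.1 and 26.2 in HoxA9+Meis1 clones, and 5196, 2966 and 2148 in HoxA9 clones. With dim values at 369, 2 other Sdc2 probe sets that separated the arrays had ratios of at least 1.89 and of 1.15. The remaining Sdc2 probe set did not separate them. Its lowest MLL-ENL or HoxA9 value was 76.1 and its highest NUP98-NSD1 or HoxA9+Meis1 value 455. A further 3 probe sets with no gene listed met both thresholds, with ratios of 3.73, 2.42 and 2.20.

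Over all tested probe sets 613 (1.98%) had the 4 MLL-ENL and HoxA9 arrays all above the other 6, and 644 (2.08%) had them all below. The count of genes met by the thresholds depended on single arrays. It was 22 without NUP98-NSD1 clone 3, 25 without the MLL-ENL array and 33 without HoxA9 clone 1, and 10 to 13 without any other array. Leaving arrays out can only add genes under these thresholds, so the 10 genes had to stay in and the count could not fall. Without the whole HoxA9+Meis1 group 44 genes met the thresholds and without the whole NUP98-NSD1 group 115, an alternative chosen after the data were seen.

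**Figure D4:**
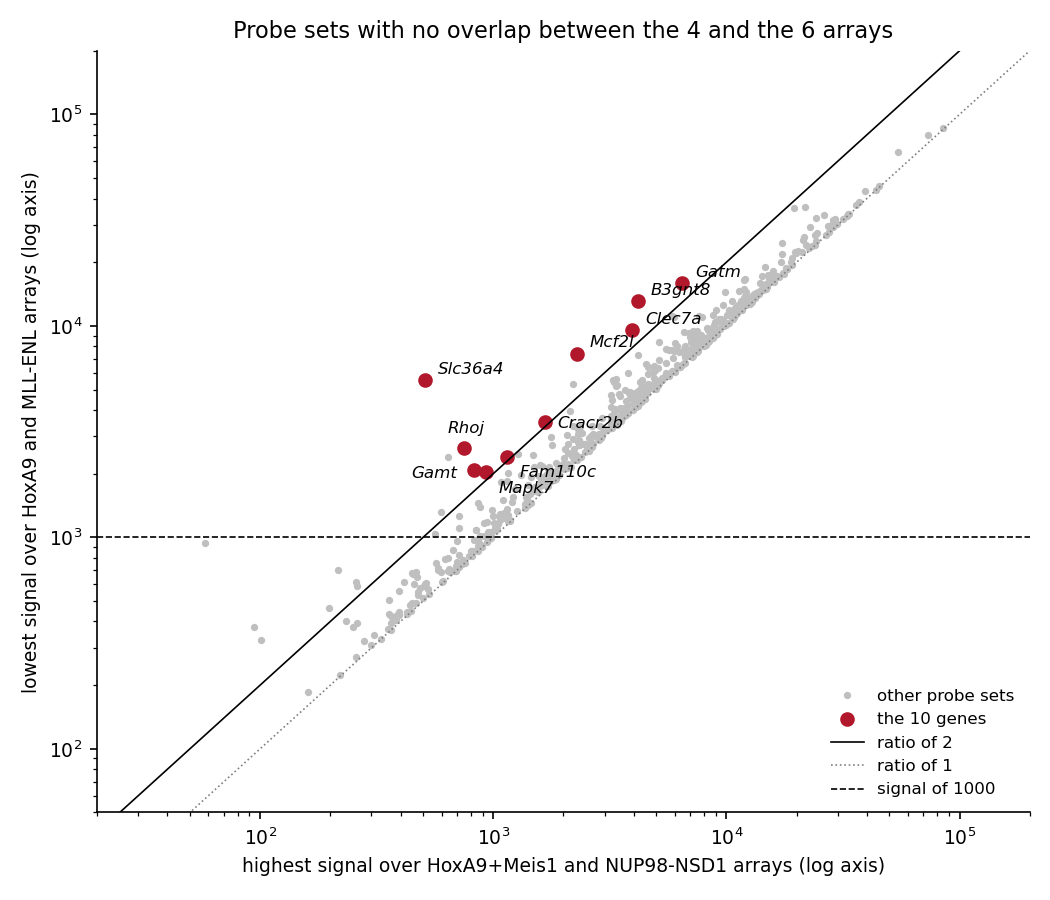
Lowest signal over the MLL-ENL and HoxA9 arrays against the highest signal over the HoxA9+Meis1 and NUP98-NSD1 arrays, on log axes in array units, for tested probe sets in which the 4 arrays all lie above the 6. Red points are the 10 genes, the solid line is a ratio of 2 and the dashed line a signal of 1000; Slc36a4 stands farthest above the solid line among the red points, and most grey points lie near the dotted line of ratio 1.

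**Figure D5:**
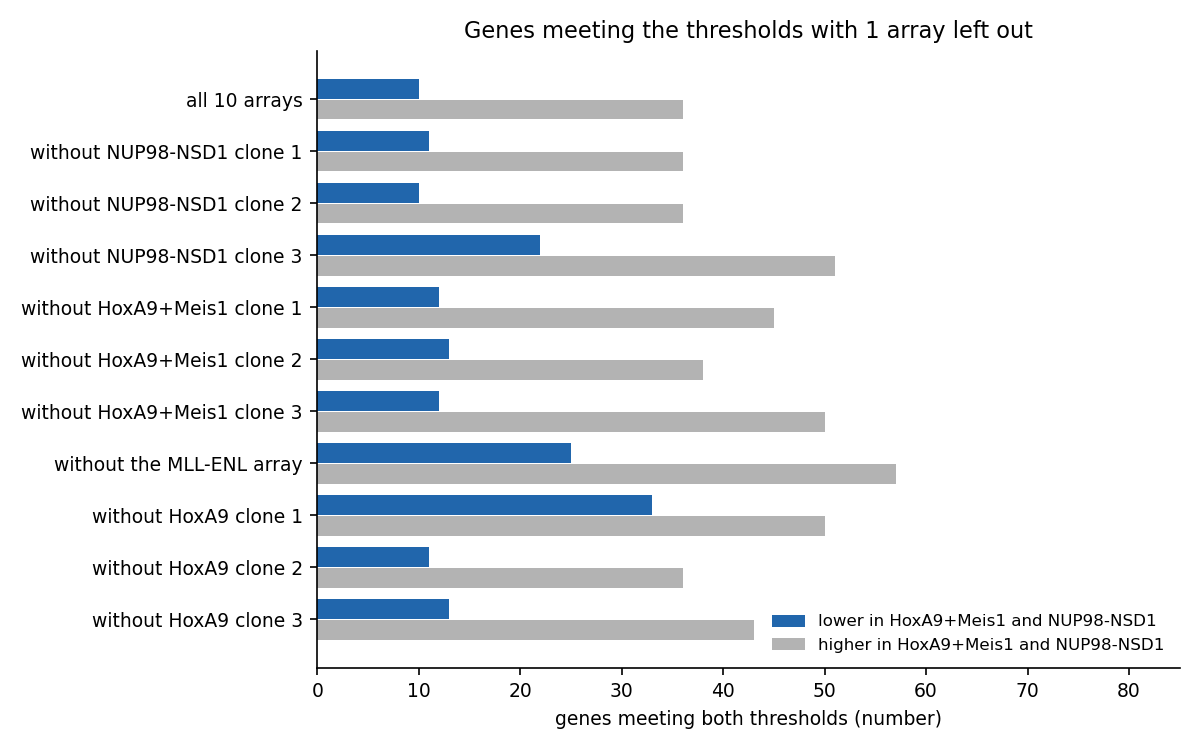
Number of genes that met both thresholds with all 10 arrays and with each array left out, lower (blue) and higher (grey) in the HoxA9+Meis1 and NUP98-NSD1 arrays. The blue bar is 10 with all arrays and longest, at 33, without HoxA9 clone 1; the grey bar is longer in every case and 36 with all arrays.

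The 10 genes lie on 8 chromosomes, with Rhoj and Fam110c on chromosome 12 and B3gnt8 and Cracr2b on chromosome 7. Of 40 measured flanking genes, the nearest 2 on either side of each, 2 (5.0%) had all MLL-ENL and HoxA9 arrays above all others, against 1.98% of all probe sets. Both were the nearest on their side. They were Bckdha, a branched-chain keto acid dehydrogenase subunit next to B3gnt8 (ratio 1.09), and Dld, the dihydrolipoamide dehydrogenase gene near Fam110c (ratio 1.14).

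Clec7a was the only 1 of the 10 genes that stood in one of the gene lists used, that of myeloid immune receptors, of which 36 others were measured. Between NUP98-NSD1 and MLL-ENL cells 7 of the 36 were higher and 0 lower by limma (median log2 -0.50), against 2.80% and 1.18% of all probe sets. Siglecf, an eosinophil lectin, rose by 4.20 (SE 0.55, adjusted p = 0.00406), Treml2 by 1.98 (adjusted p = 0.0144) and the mannose receptor Mrc1 by 2.37 (adjusted p = 0.0114). Between HoxA9+Meis1 and HoxA9 cells 7 were higher and 5 lower (median 0.24), against 3.40% and 3.49%. Those that fell were Clec4a2 (-2.74, SE 0.33, adjusted p = 0.000861), Clec5a (-1.72), Trem3 (-1.62), Tlr4 (-1.21), the lipopolysaccharide receptor, and Sirpa (-0.60). Ly86, a partner of the receptor Cd180, rose by 6.82 against HoxA9 (adjusted p = 4.13e-05) and by 3.75 in NUP98-NSD1 against MLL-ENL cells (adjusted p = 0.0188). The part of the mast cell, basophil and eosinophil markers, whose sums are given above, in the result for Siglecf was not tested.

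Among lists of the same kinds of protein as other members, taken up after the members were known, most genes were not called. Of 37 signalling kinases and phosphatases, 1 was higher and 0 lower in NUP98-NSD1 than in MLL-ENL cells (limma), against 2.80% and 1.18% of all probe sets. In HoxA9+Meis1 against HoxA9 cells 6 were higher and 1 lower, against 3.40% and 3.49%, and the lower one was Prkcb, protein kinase C beta (-3.48, SE 0.52, adjusted p = 0.00311). Of 37 ion channels and solute carriers, 2 were higher and 1 lower in NUP98-NSD1 than in MLL-ENL cells, where the lower one was the efflux pump Abcg2 (-3.003, SE 0.66, adjusted p = 0.0333). The shares of all probe sets are those given for the kinases. In HoxA9+Meis1 against HoxA9 cells 4 were higher and 3 lower, and the amino acid carriers Slc7a7 (-1.20, adjusted p = 0.0342) and Slc43a2 (-0.93, adjusted p = 0.0223) were among the lower.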

How the data were processed

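Each deposited value is an intensity, 1 for a probe set on an array, not on a log scale (45101 probe sets). The sources used here do not give the software. After trimming 2% at each end, the deposited intensities averaged 2500.01 to 2500.02 on all arrays, so the authors or their software had scaled them, and they were used without further normalization. All value columns belong to a sample. Symbols came from the platform annotation, updated by Entrez ID for 34754 probe sets; 34945 probe sets carry 1 symbol and 932 several.

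Values were analysed as log2(signal + 32), which understates the change of dim genes. Probe sets above the 40th percentile of all values (369) on at least 3 of 10 arrays were kept (30945). The test was limma 3.58.1 (R 4.3.3) with 4 group means, contrasts and eBayes with a trend on intensity, two-sided, with Benjamini-Hochberg adjustment over all kept probe sets and calls under 0.05. For the lists, a gene was represented by its kept probe set with the highest mean. The fit was tested on simulated data. The number of arrays limits the precision.

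The 10 genes, the lists and the tests were chosen with earlier results of these data known. All 10 genes are named with their value on every array, as are the genes nearest outside the ratio; genes of lists are examples from the calls, and relatives were picked after their values were seen. Alternatives were other normalizations, offsets, filters and thresholds, no trend, the compared groups alone, the clone number as a block, and each array left out. The result of a further gene list is not reported here.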

Additional observations from a re-analysis of the deposited data

How the results depend on the processing

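The number of genes meeting the thresholds was 10 as reported, 35 at a ratio of 1.5 and 4 at a ratio of 3. It ran from 10 to 33 when 1 array was left out, which cannot lower it, with 25 without the MLL-ENL array. It was 44 without the HoxA9+Meis1 group and 115 without the NUP98-NSD1 group, both chosen after the data were seen. Quantile normalization gave 11, adding Sdc2. A common median gave 10, with Sdc2 in place of Clec7a, and leaving out probe sets with a suffix for shared sequences gave 9, without Mapk7.

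Between NUP98-NSD1 and HoxA9+Meis1 cells 2 of the genes were called higher, and 1 when the compared groups were fitted alone. Without HoxA9+Meis1 clone 3, Gatm was called higher as well. The 1 called lower became 0 with a common median, without a trend or with the compared groups alone, 2 with the filter at the 60th percentile, and 0 to 1 with 1 clone left out. Between MLL-ENL and HoxA9 cells the number lower was 0 to 1 with 1 clone left out. Some differences that were not called changed sign. For NUP98-NSD1 minus HoxA9+Meis1 these were Mcf2l (-0.144 to 0.703 with a clone left out, -0.037 among them) and B3gnt8 (0.002 with a common median, and -0.433 to 0.069, 0.058 among them, with a clone left out). For MLL-ENL minus HoxA9 with a common median they were Slc36a4 (0.054), B3gnt8 (0.338), Gatm (0.274) and Cracr2b (0.464). With quantile normalization they were Mcf2l (-0.021) and Cracr2b (0.023). With a HoxA9 clone left out they were Mcf2l (-0.179 to 0.168), Gamt (-0.096 to 0.175) and Cracr2b (-0.141 to 0.069, 0.029 among them). None of these was called. A common median moves all probe sets of an array by the same amount on the log2 scale, and that shift gave the sign changes listed for it. For the others the cause was not tested.

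A common median also turned the split over all probe sets, to 4499 higher and 2876 lower from 4262 and 5313 for NUP98-NSD1 minus HoxA9+Meis1, and to 3252 and 1122 from 1549 and 2928 for MLL-ENL minus HoxA9. Quantile normalization brought MLL-ENL minus HoxA9 to 2629 calls in all, against 4477. Same-numbered clones did not deviate together (r from -0.064 to 0.043). With the clone number as a replicate block, 2 of the genes were higher and 1 lower between NUP98-NSD1 and HoxA9+Meis1 cells, as without it. MLL-ENL has no clone number, so no block was fitted there. A signal under 369 limits what can be said of size for Slc36a4 and, in part, Rhoj, Gamt, Gatm and Mapk7.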
